A study of Mus musculus with 6 samples.

Results

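The SLC25 genes encode the mitochondrial carriers, and 44 of the 55536 genes in the table were examined here. They are the entries whose symbol is Slc25a followed by a number, 47 in all, less Slc25a13, Slc25a15 and Slc25a20. The rule reads symbols only, but it was set with earlier results of these data known. RNA came from 6 livers of male C57BL/6 mice, 3 labelled Sirt5+/+ and 3 labelled Sirt5-/-, the latter lacking SIRT5, a deacylase enzyme of mitochondria. Every animal had been injected at 4 weeks of age with 50 µg of a PB[CMV-myc-YAP5SA]DS plasmid and 10 µg of Act-PBase plasmid, and livers were taken 20 days after this hydrodynamic injection (HDI), which pushes plasmid into hepatocytes with a large volume of fluid. YAP5SA is a constitutively active YAP, a co-activator of transcription, here behind a CMV promoter, and PBase is the piggyBac transposase. Both genotypes carried YAP5SA, so no liver without it was compared. The labels number the livers without saying whether each is a different animal, so the p-values reflect only the spread among these samples, which may be technical. By its title the series is about SIRT5 and the formation of liver cancer.

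Mitochondrial carriers sit in the inner membrane and exchange nucleotides, phosphate, carboxylates, amino acids and cofactors between the mitochondrial matrix and the cytosol. Their genes lie on nuclear chromosomes, and most of the proteins are built from repeats of one short module and are inserted by the TIM22 machinery. In hepatocytes they link the matrix to ammonia disposal, glucose production, fatty acid synthesis and ATP export.

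Library totals were between 19307808 and 24330797 estimated read counts, and the members together took 0.0706 to 0.319% of them. Sirt5 had 352, 441 and 96 counts in the Sirt5+/+ livers and 14, 45 and 18 in the Sirt5-/- livers, as labelled. Levels are given as CPM, counts scaled to a common library size by TMM, which equalises the typical gene, and 3 counts in a library equal 0.0827 to 0.393 CPM. Mitochondrially encoded RNA took 46.4% of counts in Sirt5+/+ replicate 3 and 40.8% in Sirt5-/- replicate 1, against 6.58 to 21.5% in the other livers, so these libraries stand apart. Sirt5+/+ replicate 2 held 4035 counts of 6 skeletal muscle genes, against 9 to 44 in every other liver. Hepatocyte markers were lower in Sirt5-/- (12 of 14 called, summed level 22219 to 41854 CPM against 100631 to 133387), and none was at 0 in any liver. Of 7 macrophage and monocyte markers 6 were higher and 1, the Kupffer cell gene Clec4f, was lower (summed 1069 to 2063 CPM against 316 to 395). Stellate cell and fibroblast markers summed to 2011 to 2241 CPM in Sirt5-/- against 382 to 651 in Sirt5+/+. The 3 of 6 called higher were the collagens Col1a1, Col1a2 and Col3a1, which make up most of that sum. Without a call, Dcn was higher (log2 change 0.68) and Lrat (-0.96) and Des (-0.27) were lower. Bile duct markers (2 of 6, Krt7 and Krt19) summed to 739.6 to 818 CPM in Sirt5-/- against 77.5 to 386 in Sirt5+/+. The bile duct sum is mostly Spp1, which was not called (adjusted p = 0.0621). In whole liver, fewer cells of a type and less RNA per cell cannot be told apart, and the part of these shifts in the carrier results was not tested.

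Of the 44 carriers, 39 had enough reads to be tested. Livers without Sirt5 had lower levels of 17 of the 39 and higher levels of 4 at an adjusted p under 0.05 (edgeR quasi-likelihood test, Benjamini-Hochberg adjustment over 14801 genes), and 18 did not pass. Among all genes tested 17.1% were lower and 17.4% higher (34.5% called in either direction, beside 21 of the 39 carriers), so the share of lower carriers was above the background and that of higher carriers below it. Of the 4 rises 1, Slc25a43, passed the filter on low counts through the Sirt5-/- livers alone. The fall was at least 2-fold in 14 of the 17. The median log2 change of the 39 was -0.84 and that of all genes -0.08. In 22 of the 39 carriers the ranges of the genotypes were apart, against 49.8% of all genes, a share close to that background.

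These directions hold relative to the typical gene. With libraries scaled by their totals the median of all genes became 0.60 and that of the carriers -0.23. The 4 rises kept their calls there, and of the 17 falls Slc25a48 alone did (2.2% of all genes were lower and 16.5% higher on that scale). When libraries were scaled to hepatocyte markers the median of all genes was 1.93 and that of the carriers 1.15, no carrier was lower and 22 were higher (0.446% and 76.7% of all genes). On that scale the sign reversed for 11 of the 17 falling carriers. Among these, Slc25a17, Slc25a25 and Slc25a38 were called higher. The scaling raised the medians of the carriers and of all genes by a similar amount. A change of sign on that scale therefore cannot be read apart from this shift, and its cause was not tested. How many of all falling genes reversed was not counted. The choice of livers mattered too, since 8 falls were left without Sirt5-/- replicate 2 and 8 without Sirt5-/- replicate 3. The share of all genes called in such fits was not counted, so the loss cannot be read as particular to the carriers. In all 6 fits that left out a liver, 7 falls (Slc25a10, Slc25a22, Slc25a23, Slc25a42, Slc25a44, Slc25a47 and Slc25a48) and 3 rises (Slc25a4, Slc25a24 and Slc25a36) passed.

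**Figure D1:**
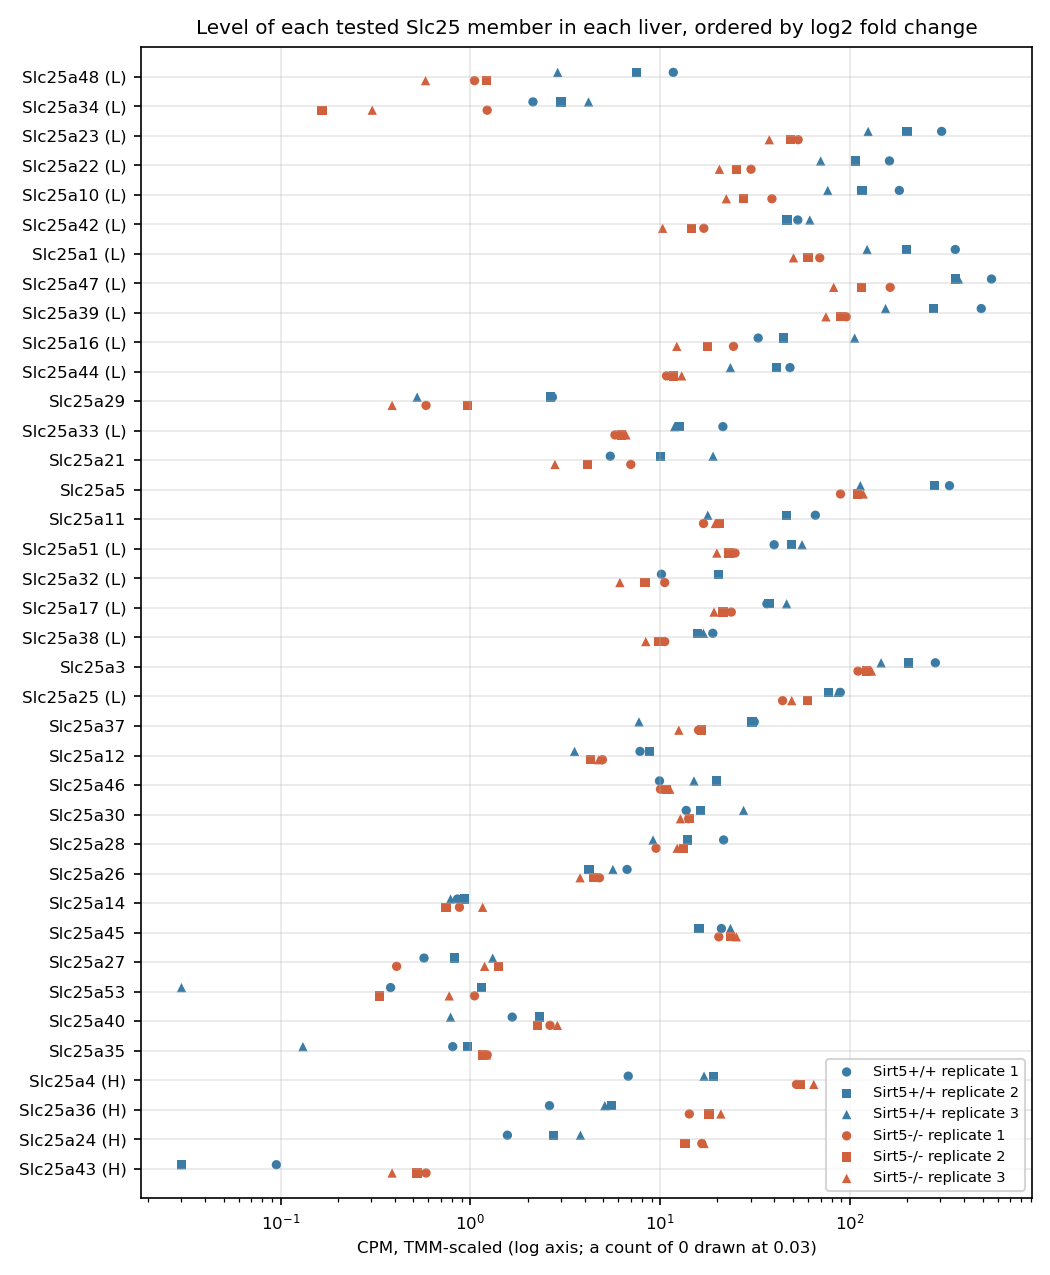
CPM (TMM-scaled, log axis) of 38 tested carriers in each liver, ordered by log2 fold change, with blue for Sirt5+/+, orange for Sirt5-/-, a symbol for each replicate, L for lower and H for higher at an adjusted p under 0.05. In Slc25a4, Slc25a24 and Slc25a36, near the foot, every Sirt5-/- liver lies above every Sirt5+/+ liver. Most of the upper rows show the opposite order, which is relative to TMM scaling. The direction reverses for 11 of the 17 falls when scaled to hepatocyte markers, which raises the median change of all genes to 1.93.

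To show what lies upstream of carriers that kept their call whichever liver was left out, the 250 bases before the RefSeq start (GRCm38.p6) are given for the 3 such rises and for 3 of the 7 such falls, picked after their values were seen. They are read 5′ to 3′ on the gene's strand. In GENCODE M21 some of these genes start further upstream, so part of the window lies inside the annotated gene. This part is 222 of the 250 bases for Slc25a4, 116 for Slc25a36 and 24 for Slc25a42. Capitals mark matches on either strand to CATTCC, the core bound by TEAD factors, the DNA-binding partners of YAP, or to CACGTG, the E-box. No motif searched contains another, and they were chosen after the expression values were known.
Slc25a24 (chr3:109122899-109123148, plus strand): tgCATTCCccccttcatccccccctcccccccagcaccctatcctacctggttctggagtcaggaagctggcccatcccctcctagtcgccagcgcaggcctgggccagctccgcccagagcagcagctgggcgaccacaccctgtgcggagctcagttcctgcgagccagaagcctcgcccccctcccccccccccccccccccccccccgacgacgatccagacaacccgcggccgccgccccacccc
Slc25a36 (chr9:97111042-97111291, minus strand): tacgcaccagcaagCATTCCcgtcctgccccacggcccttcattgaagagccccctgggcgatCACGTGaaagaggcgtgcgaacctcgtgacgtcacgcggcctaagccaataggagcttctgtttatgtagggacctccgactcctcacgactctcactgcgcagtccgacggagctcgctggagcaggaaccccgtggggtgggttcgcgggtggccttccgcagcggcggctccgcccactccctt
Slc25a4 (chr8:46211063-46211312, minus strand): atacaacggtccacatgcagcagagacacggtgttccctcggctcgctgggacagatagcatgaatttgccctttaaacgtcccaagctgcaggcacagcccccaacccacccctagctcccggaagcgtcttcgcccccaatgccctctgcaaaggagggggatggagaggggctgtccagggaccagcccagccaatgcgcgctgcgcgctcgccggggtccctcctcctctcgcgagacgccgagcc
Slc25a23 (chr17:57059864-57060113, minus strand): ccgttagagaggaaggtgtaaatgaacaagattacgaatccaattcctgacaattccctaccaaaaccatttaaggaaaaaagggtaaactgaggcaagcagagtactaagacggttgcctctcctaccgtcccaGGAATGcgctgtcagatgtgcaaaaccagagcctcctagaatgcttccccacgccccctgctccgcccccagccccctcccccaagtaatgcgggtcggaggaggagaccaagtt
Slc25a42 (chr8:70212282-70212531, minus strand): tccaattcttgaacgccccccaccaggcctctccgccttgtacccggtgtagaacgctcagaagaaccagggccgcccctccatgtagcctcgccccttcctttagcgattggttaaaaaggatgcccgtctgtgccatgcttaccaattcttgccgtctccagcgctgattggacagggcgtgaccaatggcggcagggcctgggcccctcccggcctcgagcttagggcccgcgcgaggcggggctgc
Slc25a48 (chr13:56438105-56438354, plus strand): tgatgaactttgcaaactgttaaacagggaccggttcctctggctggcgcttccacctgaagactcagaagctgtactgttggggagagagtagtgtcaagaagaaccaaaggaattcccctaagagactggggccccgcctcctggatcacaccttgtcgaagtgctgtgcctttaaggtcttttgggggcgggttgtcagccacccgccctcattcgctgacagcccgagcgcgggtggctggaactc
RefSeq windows were found for 33 of the 44 carriers. CATTCC occurred in 6 of the 33, among them 2 of the 4 that rose and 3 of the 14 that fell with a window, and in 12.6% of all 32851 promoter windows. CACGTG occurred in 5 of the 33 and in 6.02% of all windows, and AAGGTCA, a half-site of estrogen-related receptors, in 1 of the 33 (Slc25a34) and in 4.08%. No window held the palindromic NRF1 motif, found in 0.782% of all windows, or CAAAGTCCA, an HNF4A motif found in 0.384%. Slc25a23, which fell, has CATTCC as Slc25a24 and Slc25a36 do, and a match describes letters only.

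The adenine nucleotide carriers, which swap matrix ATP for cytosolic ADP, differed among themselves. Slc25a4 (chromosome 8, 46206797 to 46211284, minus strand, GRCm38), the isoform known from heart and skeletal muscle, stood at 6.78, 19.1 and 17.03 CPM in the Sirt5+/+ livers, in replicate order as throughout, and at 52.3, 54.97 and 64.4 CPM in the Sirt5-/- livers. All 3 livers without Sirt5 were above all 3 with it, and Slc25a4 rose 4.01-fold, by 2.00 ± 0.39 (SE; adjusted p = 0.00582) on the log2 scale. Without Sirt5+/+ replicate 2, the liver with muscle RNA, the log2 change was 2.27 (adjusted p = 0.0181). Slc25a5 (chromosome X, 36795651 to 36798807, plus strand), the isoform of dividing and most other cells, had 335, 279 and 113 CPM in Sirt5+/+ and 89.2, 109.7 and 117 CPM in Sirt5-/-. Sirt5+/+ replicate 3 lay among the Sirt5-/- livers, and the change of -1.20 ± 0.41 (SE) missed the threshold (adjusted p = 0.0525), but passed without that replicate (log2 change -1.49, adjusted p = 0.00136) and in DESeq2. Slc25a5 is uncertain in level, since 49.4% of the 31-base words of its transcripts occur in other genes, 30.4% in the entry Gm5560, while no word of Slc25a4 does.

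Within each library, the Slc25a5 to Slc25a4 ratio does not depend on how libraries are scaled. By TPM, which corrects for transcript length, there were 82.9, 23.6 and 10.99 transcripts of Slc25a5 for each of Slc25a4 in the Sirt5+/+ livers, and 2.86, 3.32 and 3.03 in Sirt5-/-. The ratio was lower in every liver without Sirt5, by 3.19 on the log2 scale of read counts (exact permutation test, two-sided, p = 0.1, the smallest that 20 assignments allow). Slc25a3 (chromosome 10, 91116574 to 91124059, minus strand), the phosphate carrier that supplies ATP synthase, had 282, 204 and 146 CPM against 110.2, 122 and 129.9 CPM, without overlap, and a log2 change of -0.80 ± 0.31 (SE) that missed the threshold (adjusted p = 0.0805). Slc25a31, the isoform known from testis, had 1 to 10 counts and was not tested.

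ATP-Mg/phosphate carriers, which adjust the matrix adenine nucleotide content in response to calcium, moved in opposite directions. Slc25a24 (chromosome 3, 109123149 to 109168457, plus strand) had 1.57, 2.75 and 3.80 CPM in Sirt5+/+ and 16.6, 13.5 and 17.04 CPM in Sirt5-/-. Every Sirt5+/+ liver was far below the lowest Sirt5-/- liver, and Slc25a24 rose 5.97-fold, by 2.58 ± 0.35 (SE; adjusted p = 0.00207) on the log2 scale. Slc25a23 (chromosome 17, 57043711 to 57059863, minus strand), the most abundant of this group in Sirt5+/+ by TPM, fell from 304, 199.9 and 125 CPM to 53.3, 48.6 and 37.6 CPM, by 2.17 ± 0.38 (SE; adjusted p = 0.00401). Slc25a25 (chromosome 2, 32414487 to 32451445, minus strand) stood at 88.9, 77.3 and 86.5 CPM against 44.2, 59.5 and 49.3 CPM and fell by 0.72 ± 0.24 (SE; adjusted p = 0.0459), a call lost on leaving out any 1 of 5 of the 6 livers (highest adjusted p 0.174), and the change was 1.29 with hepatocyte marker scaling. In TPM the Slc25a24 to Slc25a23 ratio was 0.00455, 0.0119 and 0.0239 in Sirt5+/+ and 0.249, 0.234 and 0.38 in Sirt5-/-. The ratio was higher in all 3 Sirt5-/- livers, by 4.70 on the log2 scale (exact p = 0.1), and that of Slc25a25 to Slc25a23 by 1.36 (exact p = 0.1). Slc25a24 and Slc25a23 were each apart between genotypes in opposite directions, so their ratio had to be apart and its p adds no support. Slc25a41 had 2 counts in 1 liver and Slc25a54 none in any.

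**Figure D2:**
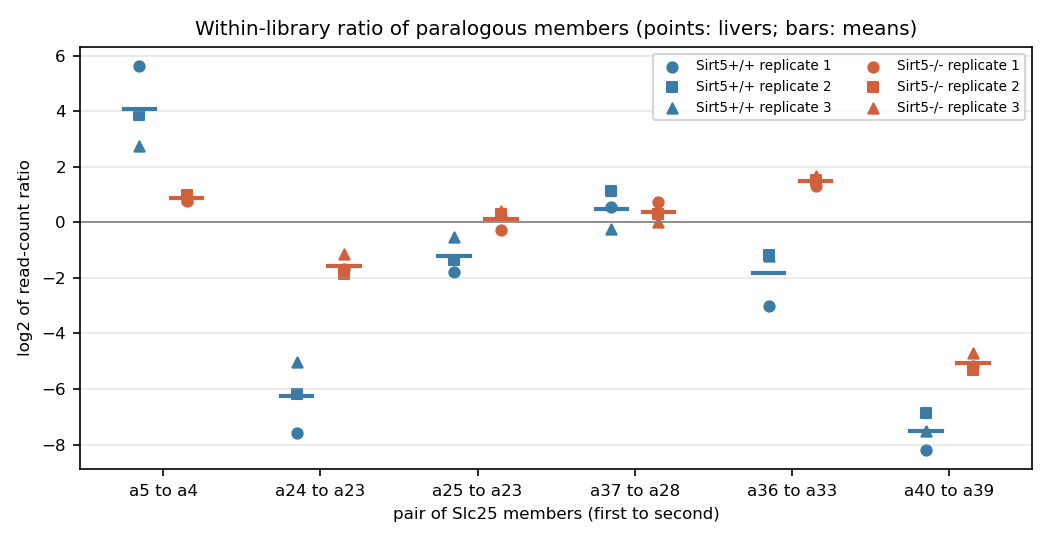
Log2 ratio of the read counts of 2 related carriers within each liver (y axis) for 6 pairs (x axis, symbols shortened to a and the member number), with blue for Sirt5+/+, orange for Sirt5-/-, a symbol for each replicate and bars for the means. The genotypes are apart in 5 pairs and overlap for Slc25a37 to Slc25a28.

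Carboxylate carriers had 2 of 4 members lower and none higher, calls that were lost with library totals. Slc25a1 (chromosome 16, 17925223 to 17928219, minus strand), which exports citrate for fatty acid and sterol synthesis, had 359, 199 and 123 CPM in Sirt5+/+ and 69.3, 60.04 and 50.4 CPM in Sirt5-/-. All Sirt5+/+ livers were above all Sirt5-/- livers, with replicate 1 far above the other two. The fall of Slc25a1 was 1.92 ± 0.41 (SE; adjusted p = 0.00888), missed without Sirt5-/- replicate 3 (adjusted p = 0.0529), and with hepatocyte marker scaling the change was 0.17. Slc25a10 (chromosome 11, 120491840 to 120499187, plus strand), the dicarboxylate carrier that exchanges malate or succinate for phosphate, fell 4.23-fold from 182, 116 and 76.4 CPM to 38.8, 27.5 and 22.3 CPM, by 2.08 ± 0.38 (SE; adjusted p = 0.00506). Slc25a11, the oxoglutarate-malate carrier of the malate-aspartate shuttle, had 65.7, 46.3 and 17.8 CPM against 16.9, 20.5 and 19.5 CPM, with Sirt5+/+ replicate 3 within the Sirt5-/- range (log2 change -1.19, adjusted p = 0.059). Slc25a21, which carries oxoadipate from lysine and tryptophan breakdown, had 5.46, 10.03 and 18.99 CPM against 7.001, 4.13 and 2.79 CPM (log2 change -1.30, adjusted p = 0.0783), and here Sirt5+/+ replicate 3 was the highest liver.

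Among 5 tested amino acid carriers 3 were lower, none of them with library totals. Slc25a22 (chromosome 7, 141429744 to 141437892, minus strand), a glutamate carrier, stood at 162, 107 and 70.1 CPM in Sirt5+/+ and 30.1, 25.2 and 20.5 CPM in Sirt5-/-. Its lowest Sirt5+/+ level was more than the highest Sirt5-/- level, and it fell 4.47-fold, by 2.16 ± 0.36 (SE; adjusted p = 0.00345). Slc25a44 (chromosome 3, 88410498 to 88425139, minus strand), which takes up branched-chain amino acids, fell from 48.3, 40.8 and 23.4 CPM to 10.8, 11.8 and 12.98 CPM, by 1.67 ± 0.30 (SE; adjusted p = 0.00451), with a change of 0.44 when scaled to hepatocyte markers. Slc25a38, the glycine carrier that feeds haem synthesis, fell from 18.9, 15.7 and 16.9 CPM to 10.6, 9.76 and 8.39 CPM, by 0.84 ± 0.22 (SE; adjusted p = 0.019), but not without Sirt5-/- replicate 2 or 3 (highest adjusted p 0.109), and stood at 1.15 with hepatocyte marker scaling. Slc25a12, the aspartate-glutamate carrier of muscle and brain, had 7.83, 8.82 and 3.54 CPM against 4.96, 4.30 and 4.75 CPM (log2 change -0.55, adjusted p = 0.273). For the basic amino acid carrier Slc25a29 the log2 change was -1.64 (adjusted p = 0.0855) at 0.387 to 2.70 CPM, with 4 counts in Sirt5+/+ replicate 3 and 10 to 74 in the other livers. The second glutamate carrier Slc25a18 (0 to 2 counts) and the ornithine carrier Slc25a2 (0 to 6 counts) were not tested.

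Cofactor and nucleotide carriers had 6 of 9 members lower and 1 higher, and with library totals none of the 6 passed. Slc25a36 (chromosome 9, 97074961 to 97111157, minus strand), a pyrimidine nucleotide carrier, rose from 2.61, 5.53 and 5.11 CPM to 14.2, 18.1 and 20.9 CPM. Every Sirt5-/- liver was above every Sirt5+/+ liver, and the rise was 4.04-fold, or 2.01 ± 0.34 (SE; adjusted p = 0.00362) on the log2 scale. Its relative Slc25a33 (chromosome 4, 149744036 to 149774277, minus strand), which also carries pyrimidine nucleotides, fell from 21.4, 12.7 and 11.9 CPM to 5.78, 6.23 and 6.60 CPM, by 1.31 ± 0.29 (SE; adjusted p = 0.00972). That call was missed without Sirt5-/- replicate 2 (adjusted p = 0.0526), and the change was -0.69 with library totals and 0.78 with hepatocyte marker scaling. By TPM, Slc25a36 stood at 0.0425, 0.221 and 0.146 times Slc25a33 in Sirt5+/+ and at 0.771, 1.07 and 1.07 times in Sirt5-/-. This within-library ratio was higher by 3.31 on the log2 scale (exact p = 0.1). Both carriers were apart between genotypes in opposite directions, so this p was fixed by their levels and adds no support. Slc25a33 shares 13.5% of its words with Gm13068 on the opposite strand, and whether the counting used strand is not given in the sources used here.

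Slc25a42 (chromosome 8, 70184340 to 70212305, minus strand), a coenzyme A carrier, had 53.1, 46.6 and 61.4 CPM in Sirt5+/+ and 16.98, 14.7 and 10.3 CPM in Sirt5-/-. It had the smallest adjusted p of the falling carriers and fell 3.84-fold, by 1.94 ± 0.27 (SE; adjusted p = 0.00222), with a change of -1.30 with library totals and -0.01 with hepatocyte marker scaling. Slc25a16, also linked to coenzyme A, fell from 32.8, 44.6 and 106 CPM to 24.3, 17.7 and 12.2 CPM, by 1.75 ± 0.47 (SE; adjusted p = 0.0213). Sirt5+/+ replicate 3 was its highest liver, unlike for Slc25a1 or Slc25a22, where it was the lowest of its genotype. Slc25a51, the NAD+ carrier, fell from 39.9, 49.3 and 55.9 CPM to 24.8, 23.05 and 19.9 CPM, by 1.10 ± 0.24 (SE; adjusted p = 0.00888). Slc25a17, a peroxisomal carrier of nucleotides and cofactors, fell from 36.5, 37.4 and 46.4 CPM to 23.7, 21.4 and 19.2 CPM, by 0.90 ± 0.22 (SE; adjusted p = 0.0156). Those 3 calls were missed without Sirt5-/- replicate 2 or 3 (highest adjusted p 0.0944) and the changes were 0.04, 0.84 and 1.05 with hepatocyte marker scaling. Slc25a32, which carries folate and FAD, fell by 1.02 ± 0.34 (SE; adjusted p = 0.048), the called carrier whose genotypes overlapped (10.2, 20.3 and 20.3 against 10.6, 8.32 and 6.13 CPM), and passed in only 1 of 6 fits without a liver, with a change of 0.87 with hepatocyte marker scaling. The S-adenosylmethionine carrier Slc25a26 had a log2 change of -0.34 that did not pass (adjusted p = 0.41).

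Of the iron and glutathione carriers, Slc25a39 (chromosome 11, 102402985 to 102407946, minus strand), which imports glutathione, fell from 492, 275 and 154 CPM to 95.6, 89.7 and 74.7 CPM, by 1.82 ± 0.43 (SE; adjusted p = 0.0132). The call was missed without Sirt5-/- replicate 2 or 3 (highest adjusted p 0.0684), and with hepatocyte marker scaling the change was 0.28. Its low-abundance paralog Slc25a40 had 1.66, 2.32 and 0.786 CPM against 2.63, 2.26 and 2.87 CPM (log2 change 0.65, adjusted p = 0.288). The Slc25a40 to Slc25a39 ratio was higher in all 3 Sirt5-/- livers, by 2.47 on the log2 scale (exact p = 0.1). The mitoferrin genes, for iron import, did not pass. Slc25a37, the erythroid form, had 31.3, 30.5 and 7.73 CPM against 15.9, 16.5 and 12.5 CPM (log2 change -0.64, adjusted p = 0.311), and Slc25a28 had 21.6, 13.96 and 9.17 CPM against 9.51, 13.3 and 12.3 CPM (-0.36, adjusted p = 0.437). Their ratio differed by -0.11 (exact p = 0.9). Over the 6 pairs the adjusted p was 0.12 for the 5 at the smallest possible p and 0.9 for the mitoferrins. Erythroid markers summed to 205 to 348 CPM in Sirt5-/- and 426 to 515 in Sirt5+/+, with 1 of 5 tested called, Alas2, which was lower.

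The carriers related in sequence to uncoupling proteins, Slc25a14, Slc25a27 and Slc25a30, had log2 changes of 0.10, 0.24 and -0.47, and none passed (adjusted p from 0.241 to 0.881). Slc25a14 and Slc25a27 lay at 0.408 to 1.41 CPM, and Slc25a30 at 13.7, 16.4 and 27.5 CPM against 14.1, 14.3 and 12.8 CPM.

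Among the remaining carriers 3 of 8 were lower and 1 higher. Slc25a47 (chromosome 12, 108836046 to 108856815, plus strand), known as a carrier of liver, had the highest mean TPM in Sirt5+/+, with Slc25a5 above it in replicate 2. It fell 3.59-fold from 557, 361 and 373 CPM to 163, 115 and 82.1 CPM, by 1.84 ± 0.37 (SE; adjusted p = 0.00678), and the change was -1.33 with library totals and 0.13 with hepatocyte marker scaling. Slc25a48 (chromosome 13, 56438355 to 56474239, plus strand), a choline carrier, had the largest fall, from 11.7, 7.50 and 2.88 CPM to 1.05, 1.21 and 0.58 CPM. Sirt5+/+ replicate 3 was its lowest Sirt5+/+ liver and still above all Sirt5-/- livers, and the fall was 7.89-fold, or 2.98 ± 0.55 (SE; adjusted p = 0.0052), and 2.55 with library totals (adjusted p = 0.011). Slc25a34 had 45, 84 and 32 counts in Sirt5+/+ and 21, 6 and 11 in Sirt5-/-, and fell by 2.54 ± 0.73 (SE; adjusted p = 0.0284). This call was missed without any 1 of 4 livers (replicates 1 and 2 of Sirt5+/+ and 2 and 3 of Sirt5-/-), with 0.117 as the highest adjusted p.

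Slc25a43 (chromosome X, 36743659 to 36777202, plus strand) had 2, 0 and 0 counts in Sirt5+/+ and 10, 19 and 14 in Sirt5-/-, and was called higher (adjusted p = 0.024). It passed the filter on low counts through the Sirt5-/- livers alone, which favours such a call, and the stricter filter left it out. The ratio of its 43 counts to 2, corrected for effective library sizes, was 13.6 (exact Clopper-Pearson 95% interval 3.54 to 115.9, counting error only). It missed the threshold in 4 of 6 fits without a liver (adjusted p up to 0.0923). Slc25a45 had 21.02, 16.03 and 23.4 CPM against 20.4, 23.5 and 25.2 CPM (log2 change 0.20, adjusted p = 0.55). Slc25a46, a protein of the outer membrane, had 9.92, 19.7 and 15.1 CPM against 10.04, 10.8 and 11.2 CPM (-0.48, adjusted p = 0.227). Slc25a35 (0.79, adjusted p = 0.336) and Slc25a53 (0.29, adjusted p = 0.826) lay at 0 to 1.23 CPM, and 27.4% of the words of Slc25a35 occur in Rangrf, which overlaps it on the opposite strand.

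**Figure D3:**
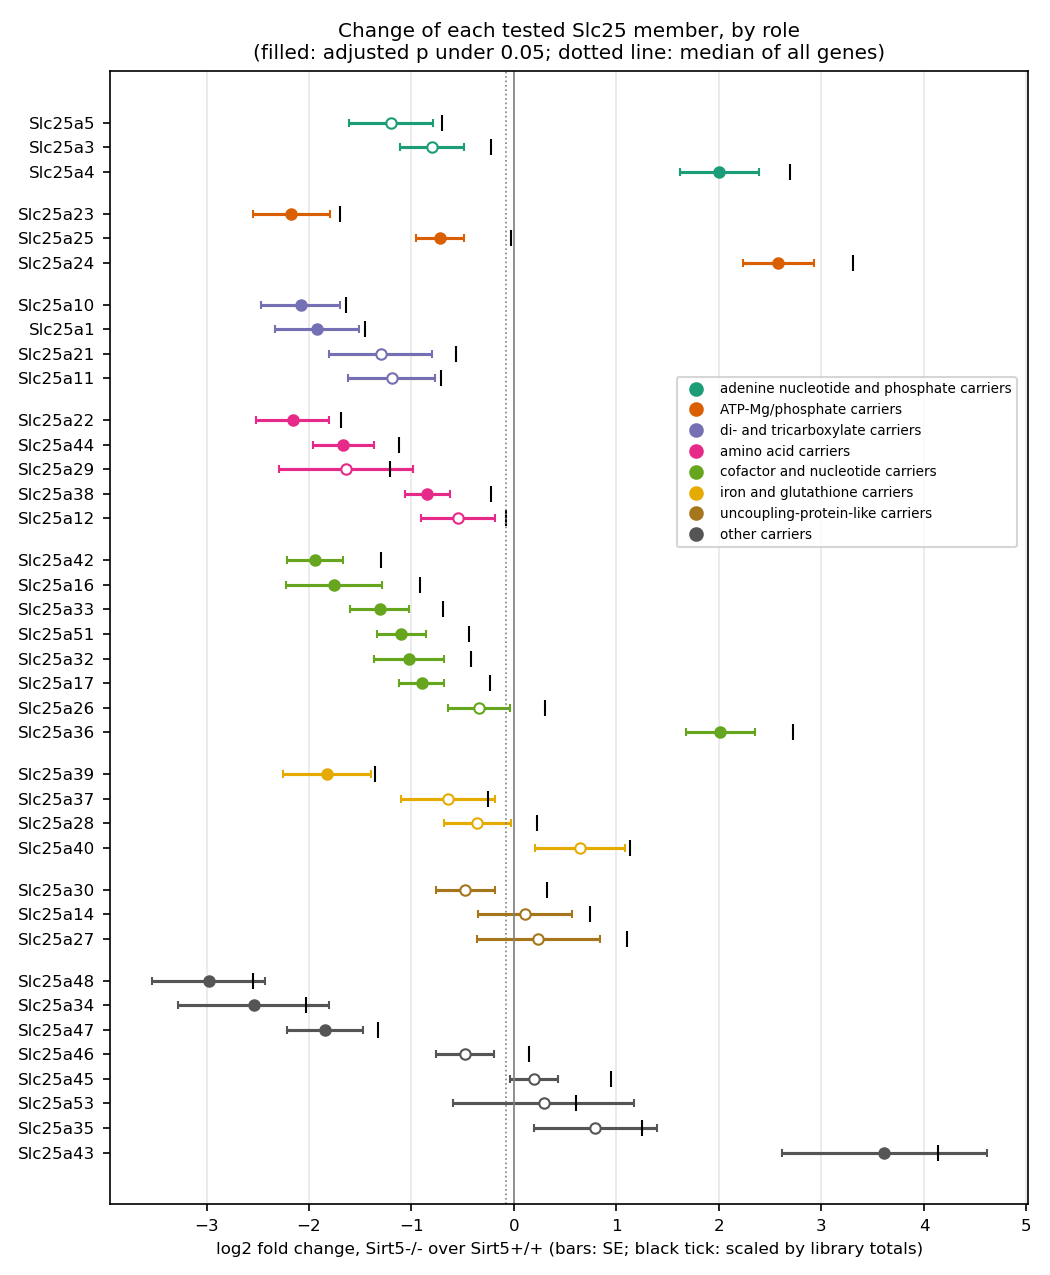
Log2 fold change (x axis, Sirt5-/- over Sirt5+/+, TMM scaling) of 38 tested carriers by role (colours), with SE bars, filled points for an adjusted p under 0.05, and black ticks for the change with library totals. Filled points on the right are Slc25a4, Slc25a24, Slc25a36 and Slc25a43, and the ticks lie to the right of the points, with 4 uncalled carriers crossing from below 0 to above it.

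The make-up of the carrier transcripts was compared within each library, as the share of the summed TPM of the 44 members, which does not depend on scaling. The sum itself does depend on the other RNA in a library. It was 2079, 1821 and 319 TPM in Sirt5+/+ and 438, 791 and 830.2 TPM in Sirt5-/-. Sirt5+/+ replicate 3, with 46.4% of its counts from mitochondrially encoded RNA, had the lowest sum. Slc25a4 made up 0.61 ± 0.365% of it in Sirt5+/+ and 5.23 ± 0.999% in Sirt5-/- (mean ± SD, n = 3). Slc25a47 made up 19.9 ± 2.69% in Sirt5+/+ and 13.2 ± 3.61% in Sirt5-/-, and Slc25a3 9.72 ± 0.491% and 15.3 ± 2.78%. The shares of Slc25a5 (14.6 ± 4.86% and 16.1 ± 3.32%) and Slc25a39 (16.5 ± 2.30% and 15.5 ± 3.28%) overlapped between genotypes.

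**Figure D4:**
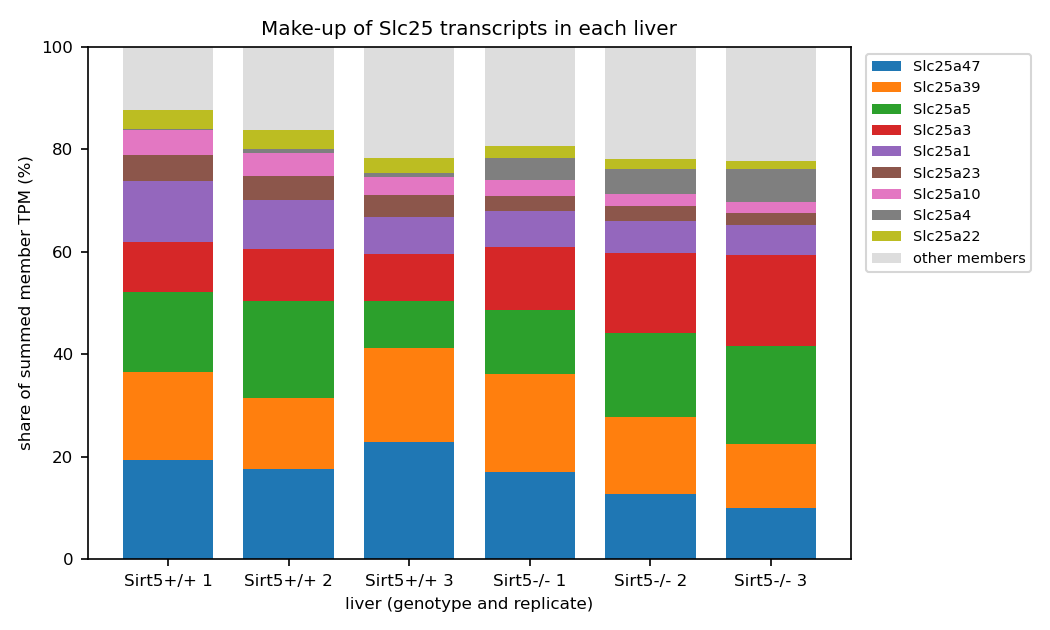
Share of the summed TPM of the 44 carriers (y axis, percent) in each liver (x axis), for the 9 carriers with the largest mean share, the rest in light grey. The dark grey block of Slc25a4 is 0.19 to 0.84% in the Sirt5+/+ livers and 4.41 to 6.34% in the Sirt5-/- livers.

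Other genes of mitochondrial transport and import were taken from a list of 44, of which 41 were tested, 17 were lower and 3 higher, against 17.1% and 17.4% of all genes (median log2 change -0.67). With hepatocyte marker scaling 0 were lower, and all of the 17 but Abcb6 turned positive. Of the 17, 9 (Mtch2, Mpc1, Vdac1, Tomm40l, Tomm70a, Timm8a1, Mcur1, Abcb8 and Abcb10) were called higher there. Of all genes 76.7% were called higher on that scale, whatever their direction in the main fit. That share is therefore not a like one for the 17. With library totals 1 was lower, and without Sirt5-/- replicate 1, 2 or 3 the number lower was 10, 5 and 5. Without Sirt5+/+ replicate 3 it was 23, and 5 were higher. Ucp2, an uncoupling protein of the same superfamily outside the symbol rule, rose from 73.1, 47.3 and 81.2 CPM to 391, 422 and 482 CPM, by 2.68 ± 0.33 (SE; adjusted p = 0.00182). The sideroflexin Sfxn3 rose from 4.84, 5.25 and 4.45 CPM to 28.01, 29.2 and 33.5 CPM, by 2.63 ± 0.22 (SE; adjusted p = 0.00146), while the serine carrier Sfxn1 fell by 1.63 ± 0.31 (SE; adjusted p = 0.00585), Sfxn2 by 1.59 ± 0.28 (SE; adjusted p = 0.00442) and Sfxn5 by 1.47 ± 0.35 (SE; adjusted p = 0.0142). Mcub, the inhibitory subunit of the calcium uniporter, rose by 2.51 ± 0.39 (SE; adjusted p = 0.00295), and Letm1 and Mcur1 fell by 1.42 and 0.93. Both pyruvate carrier subunits were lower, Mpc1 by 1.06 ± 0.30 (SE; adjusted p = 0.0267) and Mpc2 by 1.46 ± 0.29 (SE; adjusted p = 0.00676). In the TIM22 pathway, which inserts the carriers, 3 of 9 were lower, Timm29 by 1.65 ± 0.37 (SE; adjusted p = 0.0102), Timm8a1 by 0.73 and Timm9 by 1.00, and Timm22, the channel itself, had a change of -0.43 (adjusted p = 0.314). Of 8 outer membrane TOM genes 2 were lower, Tomm40l and the carrier receptor Tomm70a, by 1.10 and 0.88. Of 3 porins Vdac1 fell by 1.15. Of 4 mitochondrial ABC exporters 3 fell, Abcb6 by 2.46, Abcb10 by 1.19 and Abcb8 by 1.08. Mtch2, an outer membrane relative of the carriers, fell by 1.12 ± 0.24 (SE; adjusted p = 0.00911). For nuclear-encoded respiratory chain subunits 13 of 14 were lower with a median of -1.45, beside the same 17.1% of all genes.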

How the data were processed

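RNA of 6 livers was analysed from 1 deposited table. HISAT2 2.1.0, RSEM 1.3.1 and DESeq2 1.24.0 are named in the submitters' processing notes, without their roles; the genome build is not given in the sources used here. The expected counts (estimated reads per gene, 24.2% of nonzero values not exactly whole, with no tolerance) were deposited by the authors without scaling between libraries. The TPM values were made by the authors before deposit. The log2 fold changes and the raw and adjusted p-values in the table are those of the authors' deposited comparison and served only as an alternative set of calls. All 55536 gene IDs and names are those of GENCODE M21, and gene coordinates are those of that annotation (GRCm38).

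Here, expected counts were rounded, filtered with filterByExpr (minimum count 10, total 15), scaled by TMM and tested with edgeR 4.0.16 (quasi-likelihood F test, genotype only, two-sided) over 14801 genes, with a threshold of 0.05. Each SE was derived from the F statistic (log2 change over root F), and the common BCV, the relative spread between livers, was 0.373. On simulated data with these depths, 0 of 50 genes changed 1.5-fold and 3 of 50 changed 2-fold were called. So were 37 of 50 changed 4-fold and 50 of 50 changed 8-fold, with 2 false calls over 14581 genes. Only these genes changed there, far fewer than the 5100 called in the data, and every gene had the common BCV. The simulated rates therefore do not give the detection rates of the real fit. Ratios of related carriers were taken per library (0.5 added to counts) with an exact permutation test. Shared sequence is the percent of a gene's 31-base words found in other genes of GENCODE M21. Alternatives were other scalings and filters, DESeq2 1.42.0, limma-voom (limma 3.58.1), a replicate block, removal of mitochondrial genes and 7 nuclear copies, and leaving out livers. Every carrier of the rule but 1, which is counted and not reported here singly, is named, with per-liver values for called carriers with the largest changes and for the pairs, and up to 3 genes per sub-list and direction are named from the other list. Of 15 hepatocyte symbols 14 were in the table under that symbol. The members, lists, pairs, motifs and alternatives were chosen with earlier results of these data known. The same-numbered livers did not deviate together (correlations of -0.19, 0.11 and -0.20), so the numbers were not taken as pairs.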

Additional observations from a re-analysis of the deposited data

How the results depend on the processing

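With size factors of DESeq2, upper-quartile scaling, a stricter or no filter, removal of mitochondrial genes, limma-voom, DESeq2 and the authors' deposited calls, no tested carrier changed direction, and 14 to 21 were lower and 3 or 4 higher, against 17 and 4. DESeq2 and the authors' deposited calls added Slc25a3, Slc25a5, Slc25a11 and Slc25a21 as lower. Of these, Slc25a3 and Slc25a11 were called higher with hepatocyte marker scaling. Library totals left 1 lower carrier and 1 lower gene of the other transport list. Scaling to hepatocyte markers gave 0 lower and 22 higher carriers, and 0 lower and 33 higher other transport genes. At a threshold of 0.01, 10 carriers and 6 other genes were lower. The share of all genes called was counted only for the main fit, library totals and hepatocyte marker scaling. The other counts given here therefore have no such share beside them. Leaving out 1 liver gave 8 to 22 lower and 3 or 4 higher carriers, and 5 to 23 lower and 3 to 5 higher other genes. Without Sirt5+/+ replicate 3 and Sirt5-/- replicate 1, the libraries rich in mitochondrial RNA, 23 carriers were lower and 4 higher, and 16 of the 17 falls and all 4 rises passed. With the replicate block, 12 carriers were lower, 3 higher and 11 other genes lower, and no pair of livers is known to share an origin; no Sirt5+/+ liver correlated best with the Sirt5-/- liver of its own number. The log2 ratio of Slc25a37 to Slc25a28 ran from -0.47 to 0.21 without a liver, and the other 5 ratios kept their direction in every setting. Directions reversed with hepatocyte marker scaling for these carriers, with the log2 change: Slc25a3 1.296, Slc25a5 0.94, Slc25a25 1.29, Slc25a1 0.17, Slc25a11 0.96, Slc25a21 0.48, Slc25a12 1.55, Slc25a29 0.45, Slc25a38 1.15, Slc25a44 0.44, Slc25a16 0.036, Slc25a17 1.05, Slc25a26 1.66, Slc25a32 0.87, Slc25a33 0.78, Slc25a51 0.84, Slc25a28 1.77, Slc25a37 1.47, Slc25a39 0.28, Slc25a30 1.43, Slc25a46 1.51, Slc25a47 0.13. With library totals Slc25a26 (0.30), Slc25a28 (0.22), Slc25a30 (0.32) and Slc25a46 (0.15) reversed. Leaving out 1 liver gave both signs for Slc25a28 (-0.54 to 0.034), Slc25a14 (-0.087 to 0.25), Slc25a27 (-0.092 to 0.603) and Slc25a53 (-0.089 to 1.51, and -0.44 without both libraries rich in mitochondrial RNA), none of them called. The cause was not tested. Depth limits Slc25a14, Slc25a27, Slc25a29, Slc25a34, Slc25a35, Slc25a43 and Slc25a53, with fewer than 100 counts in every liver. The simulation found few 2-fold changes, but its rates do not carry over to the real fit.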
